A study of Mus musculus with 13 samples.

Results

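Setd7 and 7 related genes, Setd2, Setd3, Setd4, Setd5, Setd6, Setdb1 and Setdb2, were followed in the ventral tegmental area (VTA) of the mouse, a part of the midbrain rich in dopamine neurons that reach the striatum and cortex. The genes were chosen by name, as the gene that the virus overexpressed and the other SETD and SETDB genes, and they are 8 of the 26264 genes in the deposited table. All mice carried the strain label C57BlJ/6 and received a virus in the VTA at postnatal day 14, either one with Setd7 or one with green fluorescent protein (GFP), so that no group was left without virus. Punches of the tissue were taken in adulthood from mice that had met adult social defeat stress or had not. The 13 bulk RNA libraries fell into 4 groups: GFP virus without defeat (GFP control, n = 3, 1 female and 2 males), GFP virus with defeat (GFP defeat, n = 4, 2 of each sex), Setd7 virus without defeat (Setd7 control, n = 4, 2 of each sex) and Setd7 virus with defeat (Setd7 defeat, n = 2, 1 of each sex). The labels do not give the viral serotype, the promoter, the cells the virus entered or the adult age. They give each library its own number but do not say that each is 1 animal, so that p-values measure the spread between these libraries, which may in part be technical.

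The SET domain is the catalytic fold of most lysine methyltransferases, enzymes that move a methyl group from S-adenosylmethionine to lysines of histones and other proteins. SETD7 (also SET7/9) places a single methyl group on lysine 4 of histone H3 and methylates many other proteins, among them p53 and DNMT1 in human cells. The related genes do different work: SETD2 trimethylates lysine 36 of histone H3 behind RNA polymerase, SETDB1 methylates lysine 9 and silences retroelements, and SETD3 methylates a histidine of actin. The comparison asked whether the excess of Setd7 came with a change in the RNA of the related genes.

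Setd7 stood above every GFP library in every library of the Setd7 virus, while the summed level of the 7 related genes overlapped between the viruses. Mean Setd7 was 13196.5 ± 1183 normalized counts over the GFP libraries (SD, n = 7) and 104038 ± 46922.5 over the Setd7 virus libraries (n = 6). The summed counts of the other 7 genes were 15065 ± 712 and 14856 ± 933. Setd2 and Setd5, at means of 5108 and 5687 with GFP, make up most of this sum. Setdb2, at 15.6, hardly enters it. A normalized count is a read count divided by the size factor of its library. None of the 7 passed the test in any comparison, and 1 of them, the scarce Setdb2, had an unadjusted p under 0.05 for the virus.

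The sequence upstream of Setd7 is shown because it belongs to the chromosomal gene, whose reads the table cannot part from those of the virus. The 250 bases before its start in RefSeq, on the minus strand of chr3:51560824-51561073 in GRCm38.p6, read 5′ to 3′ with CG dinucleotides in capitals:
Setd7 promoter: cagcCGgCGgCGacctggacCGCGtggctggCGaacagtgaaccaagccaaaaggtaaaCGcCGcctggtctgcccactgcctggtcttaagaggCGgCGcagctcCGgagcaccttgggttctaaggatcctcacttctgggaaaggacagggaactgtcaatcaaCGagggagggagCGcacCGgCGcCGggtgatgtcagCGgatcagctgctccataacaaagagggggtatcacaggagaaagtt
It holds 17 CG dinucleotides, and 23.5% of the 32851 promoters in the RefSeq table hold at least as many in the same window, where the median is 6. All 250 bases lie inside exons of 5031434O11Rik, a transcript on the opposite strand, in the GRCm38 annotation. The table was made on GRCm39, so the coordinates describe the sequence and not the counted features.

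In the GFP control libraries Setd7 stood at 14538, 13480.5 and 13664 normalized counts. In GFP defeat it stood at 10888, 14060, 12946 and 12799. These 7 libraries lay close together, and the ranges with and without defeat overlapped. With Setd7 virus and no defeat it stood at 158681, 140236, 81302 and 28587, and with both at 92287.5 and 123133. The lowest Setd7 virus library, Setd7 control replicate 4, was 2.17 times the GFP mean, and the other 5 were at least 6.16 times it. Group means were 13894 ± 565 for GFP control (SD, n = 3), 12673 ± 1317 for GFP defeat (n = 4), 102201 ± 59139 for Setd7 control (n = 4) and 107710 ± 21811 for Setd7 defeat (n = 2).

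**Figure D1:**
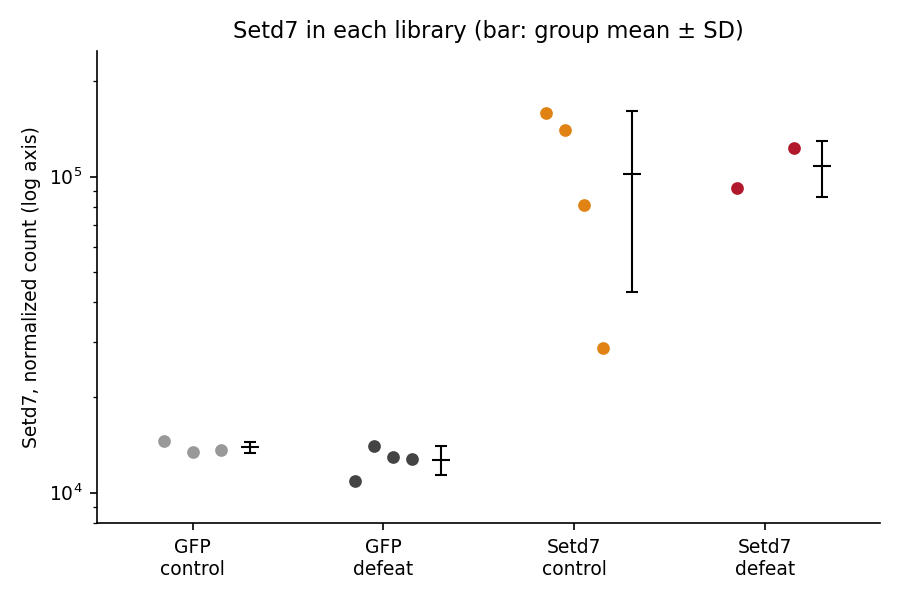
Setd7 in normalized counts (log axis) in each of the 13 libraries, by group; points are libraries, and the bar beside them is the group mean ± SD. All 6 Setd7 virus libraries sit above the highest GFP library at 14538, and Setd7 control replicate 4 at 28587 is the nearest to it.

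With GFP virus, Setd7 ranked between 320 and 550 among all genes by normalized count and held 0.0303 to 0.0420% of all counts. With Setd7 virus it ranked 6 to 13 in 5 libraries and 107 in Setd7 control replicate 4, at 0.0787 to 0.430% of counts. The ratio of Setd7 to the sum of the other 7 genes was 0.746 to 0.930 with GFP and 1.94 to 11.2 with Setd7 virus. An exact permutation test of the virus labels, two-sided, gave a difference in mean log2 Setd7 of 2.80 with p = 0.000583, the smallest that these permutations can give. Within the defeat groups the difference was 2.84 with an exact p = 0.0019, again the smallest possible. This checks the virus label of each library and is not a finding about the genes related to Setd7.

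In the fit over all 17755 tested genes (limma with a trend, 4 group means and sex, Benjamini-Hochberg adjusted), Setd7 rose by 2.81 ± 0.30 on the log2 scale (SE; 95% interval 2.16 to 3.46) with the virus averaged over defeat, adjusted p = 0.00861. It was the 1 gene called there, 0.00563% of those tested. The call was lost with robust fitting (limma adjusted p = 0.632). It was also lost without Setd7 defeat replicate 2 (2.54) and without the 3 libraries low in Th described below (2.89). The latter 2 fits each left 1 library in a group, Setd7 defeat and GFP control in turn. Without defeat the log2 difference of Setd7 was 2.54 ± 0.40 (limma adjusted p = 0.467), and after defeat 3.08 ± 0.45 (limma adjusted p = 0.236). The spread among the Setd7 control libraries entered both. Without Setd7 control replicate 4, both passed, at 3.09 (limma adjusted p = 6.86e-05) and 3.08 (limma adjusted p = 0.0001). By DESeq2 on the reads recovered from the table, both passed at 2.73 (adjusted p = 1.68e-05) and 3.11 (adjusted p = 1.15e-05), and by edgeR neither did (2.73, adjusted p = 0.435; 3.12, adjusted p = 0.0844).

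Defeat came with no called change of Setd7. The log2 difference was -0.21 ± 0.40 with GFP virus (limma adjusted p = 0.914) and 0.33 ± 0.45 with Setd7 virus (limma adjusted p = 0.9999). The test of whether the virus effect differed with defeat gave 0.54 ± 0.60 (limma adjusted p = 0.956), with a 95% interval of -0.76 to 1.84. Females stood 0.45 ± 0.29 above males (limma adjusted p = 0.999).

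Reads of viral and chromosomal Setd7 are counted together. The coding sequence makes up 1098 of the 10813 merged exonic bases of the gene in the GRCm38 annotation, 10.2%. The labels do not say which part of the transcript the virus carried, so levels per kilobase were compared between genes in GFP libraries only. None of the genes beside Setd7 on chromosome 3 was called. Naa15, a subunit of the N-terminal acetyltransferase, differed by -0.03 ± 0.06 on the log2 scale with the virus averaged over defeat (limma adjusted p = 0.935). Rab33b, a small GTPase of the Golgi, differed by 0.05 ± 0.06 (limma adjusted p = 0.857), and Maml3, a Notch coactivator, by 0.07 ± 0.13 (limma adjusted p = 0.924). The opposite-strand transcript 5031434O11Rik, which shares 131 of its 3731 exonic bases (3.51%) with Setd7, stood at 128 to 218 normalized counts with GFP and 133 to 193 with Setd7 virus, a log2 difference of -0.03 ± 0.16 (limma adjusted p = 0.973). The whole spans of Setd3, Setd6 and Setdb1, introns included, overlap those of Ccnk, Cnot1 and Cers2 in the RefSeq gene table. Whether their exons overlap was not counted. Whether the counting used strand is not given in the sources used here, so reads of overlapping genes may be shared. In bulk tissue, fewer cells of a type and less RNA per cell cannot be told apart, for these genes and all below.

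Per kilobase of merged exon in the 7 GFP libraries, Setd7 was the highest of the 8 genes at 1220 ± 109 normalized counts per kb (SD). Setd2 followed at 475 ± 39.0, Setd3 at 409 ± 18.7, Setd5 at 310 ± 13.7, Setdb1 at 225 ± 16.9, Setd6 at 84.3 ± 19.3, Setd4 at 14.9 ± 2.48 and Setdb2 at 3.86 ± 1.76. The order held in 7 of 7 GFP libraries for every neighbouring pair. All libraries share the same lengths, which merge every annotated isoform, so this cannot test the part of the lengths in the order. Before division Setd5, with 18.3 kb of merged exon, stood above Setd2, with 10.8 kb, at means of 5687 and 5108 normalized counts. Setd2 and Setd3 were the 1 pair whose ranges overlapped, at 417 to 524 and 382 to 427 per kb. Setd7 stood 2.57 times as high as Setd2 per kb. The 8 genes thus spanned from an abundant transcript to one at the edge of detection, and all 8 passed the filter of 10 normalized counts in at least 2 libraries.

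The next results take the related genes by what their proteins do, with log2 differences for the virus averaged over defeat. SETD2 is the enzyme that makes trimethylated lysine 36 of histone H3, a mark of transcribed gene bodies. Setd2 stood at 5537, 5633 and 4962 normalized counts in the GFP control group and at 5041, 5344, 4485 and 4752 after defeat. Its values with Setd7 virus were 4983, 5474, 5132 and 4887 without defeat and 4079 and 5564 after it. The groups overlapped, and the 2 Setd7 defeat libraries held the lowest value of all 13 and the next to highest. The log2 difference was -0.06 ± 0.08 (limma adjusted p = 0.89), an interval of -14.2 to 7.81%.

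SETD5 associates with the NCoR and HDAC3 corepressor and with the PAF1 complex, and is a gene of intellectual disability in humans. Setd5 held 6082, 5972 and 5450 normalized counts in the GFP control group and 5551, 5728, 5565 and 5463 after defeat. It held 5023, 6118, 5644 and 5521 with Setd7 virus alone and 4995 and 5919 with Setd7 virus and defeat. The lowest 2 of the 13 values came from Setd7 virus and so did the highest, so that the Setd7 virus libraries spread on both sides of the GFP ones. The log2 difference was -0.05 ± 0.06 (limma adjusted p = 0.864), an interval whose ends were -11.7 and 5.60%.

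SETDB1 works with the KRAB zinc finger corepressor TRIM28 to trimethylate lysine 9 of histone H3 at endogenous retroviruses. Setdb1 stood at 1577, 1669 and 1511 normalized counts in the GFP control group and at 1414, 1598, 1662 and 1374 after defeat. Its values with Setd7 virus were 1428, 1402, 1591 and 1510 without defeat and 1574 and 1571 after it. All Setd7 virus values lay inside the GFP range. The log2 difference was -0.01 ± 0.06 (limma adjusted p = 0.971), an interval of -9.67 to 8.53%.

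Setdb2, which encodes a second lysine 9 methyltransferase, was the 1 related gene with an unadjusted p under 0.05 in the comparisons of virus, defeat and their interaction. It stood at 22.2, 15.7 and 15.1 normalized counts in the GFP control group and at 22.4, 9.36, 3.52 and 21.2 after defeat. Its values with Setd7 virus were 9.83, 11.9, 3.24 and 6.12 without defeat and 7.02 and 2.35 after it. All 4 Setd7 control values lay below the 3 GFP control values, while after defeat the ranges overlapped. These values rest on 2 to 30 reads a library, 159 reads in all. The gene reached 10 normalized counts in 6 of 13 libraries, 5 of them with GFP virus, so it passed the filter largely through the group where it was higher.

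The fitted difference of Setdb2 was -1.30 ± 0.43 on the log2 scale (limma unadjusted p = 0.00968, adjusted p = 0.686), an interval of -78.7 to -22.9%. By unadjusted p it was number 232 among the tested genes, and 1265 genes had an unadjusted p under 0.05. It was -1.33 ± 0.57 without defeat (limma adjusted p = 0.609) and -1.27 ± 0.64 after defeat (limma adjusted p = 0.990). Over the alternative settings the averaged value ran from -1.53 to -0.76 with adjusted p (limma and edgeR) from 0.411 to 0.957, and DESeq2 set its adjusted p aside. Without the 3 libraries low in Th, which left GFP control replicate 1 alone in its group, it was -1.11. At this depth a change of Setdb2 was not shown.

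SETD3 methylates actin on a histidine, outside the usual lysine chemistry of the group. Setd3 stood at 2323, 2510 and 2540 normalized counts in the GFP control group and at 2303, 2576, 2478 and 2563 after defeat. It stood at 2491, 2467, 2589 and 2546 with Setd7 virus alone and at 2653 and 2604 with Setd7 virus and defeat. The 2 Setd7 defeat libraries were the highest in Setd3 of all 13, above GFP defeat (means 5.98% apart) and above Setd7 control (4.18% apart). Of all tested genes, 14.1% and 9.14% did not overlap in these 2 comparisons, so such a separation was common. Setd3 had the narrowest spread of the 8 genes, with a residual SD of 0.051 on the log2 scale, and its difference was 0.07 ± 0.04 (limma adjusted p = 0.765), an interval of -2.04 to 11.9%. After defeat alone it was 0.09 ± 0.07 (limma adjusted p = 0.990). The same 2 libraries were also the highest in summed endothelial markers, at 12038 and 10865 normalized counts against 9227 to 10177 in the other 11. Summed markers of meningeal fibroblasts were 6314 in Setd7 defeat replicate 1 and 1256 in replicate 2, against 745 to 1386 with GFP, and the part of these markers in the Setd3 values was not tested.

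SETD6 methylates the RelA subunit of NF-kappaB. Setd6 stood at 226.9, 162.1 and 115.3 normalized counts in the GFP control group and at 174.1, 167.4, 124.5 and 152.2 after defeat. Its values with Setd7 virus were 135.4, 173.6, 166.1 and 163.1 without defeat and 125.4 and 161.8 after it. All 6 Setd7 virus values lay inside the GFP range. The log2 difference was -0.08 ± 0.16 (limma adjusted p = 0.933), with a wider interval of -25.7 to 20.6%.

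SETD4 is a less studied member of the group, linked to cell quiescence in work on brine shrimp. Setd4 stood at 86.1, 85.0 and 94.8 normalized counts in the GFP control group and at 94.9, 66.5, 62.3 and 71.6 after defeat. Its values with Setd7 virus were 53.5, 44.5, 93.9 and 77.5 without defeat and 57.2 and 82.1 after it. The 3 lowest values of all came from Setd7 virus, but the other 3 Setd7 virus values lay inside the GFP range. The log2 difference was -0.25 ± 0.19 (limma adjusted p = 0.797), an interval of -37.0 to 12.9%.

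**Figure D2:**
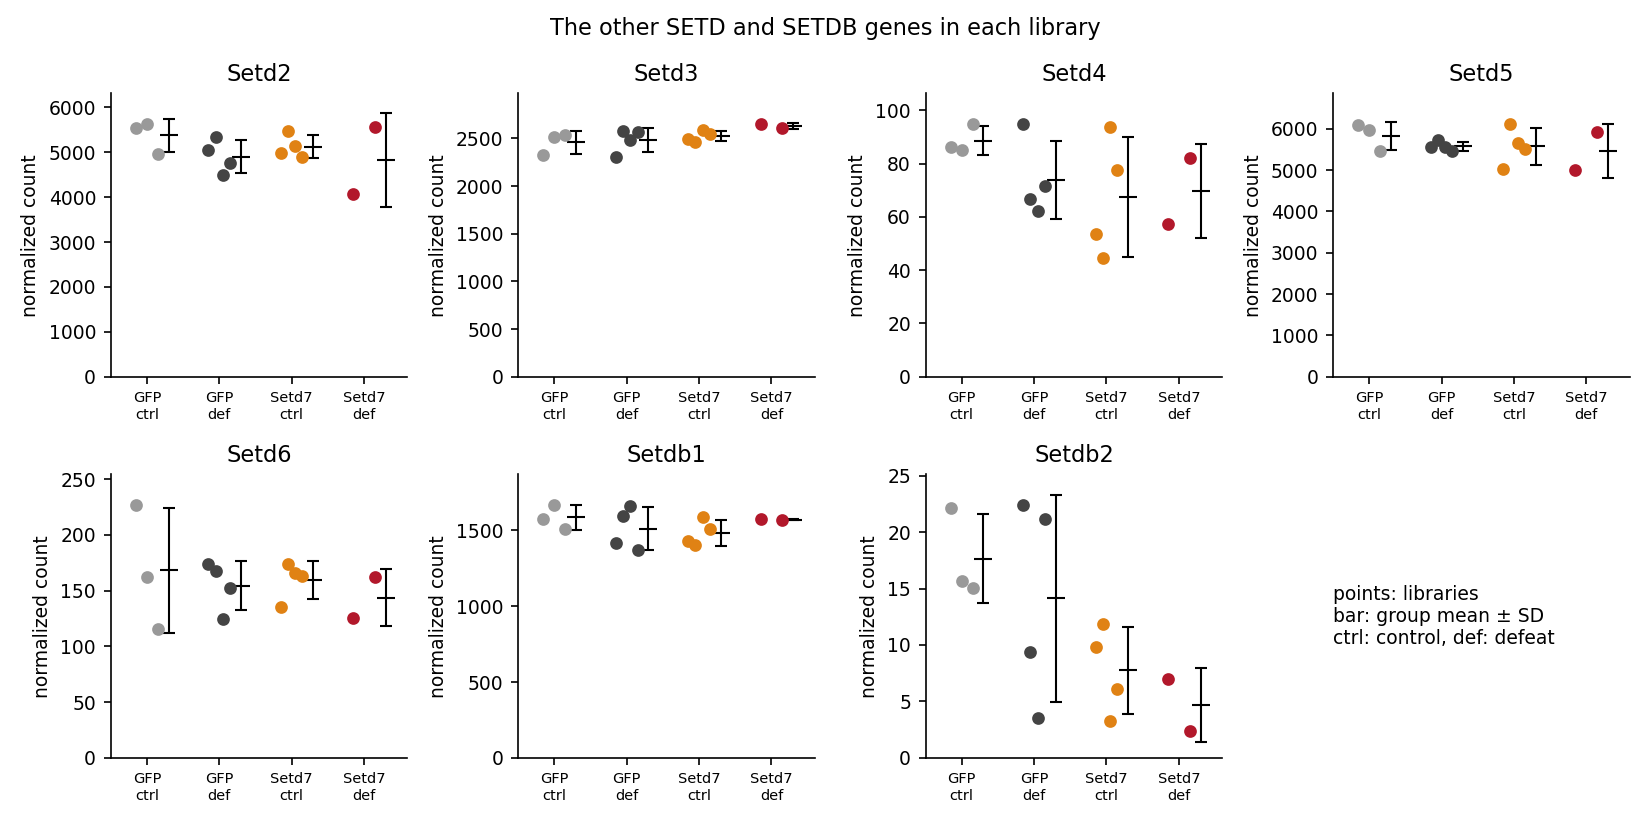
Normalized counts of the other 7 genes in each library, with axes from 0; points are libraries and the bar beside them is the group mean ± SD (ctrl, control; def, defeat). The groups overlap for each gene over the virus as a whole, and Setdb2, with 2 to 30 reads a library, shows the largest spread relative to its mean.

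Read against all genes, these patterns were common. Between Setd7 control and GFP control, 8.26% of tested genes had ranges that did not overlap, and among the 8 these were Setd7 and Setdb2. Between Setd7 defeat and GFP defeat the share was 14.1%, with Setd7 and Setd3, and between Setd7 defeat and Setd7 control 9.14%, with Setd3. Between GFP defeat and GFP control the share was 9% and held none of the 8. Over all Setd7 virus libraries against all GFP libraries 0.135% of genes did not overlap, 24 in number, and Setd7 was the 1 among the 8.

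By limma 0% of genes passed for the virus without defeat and 0% after defeat, where 1423 and 862 had an unadjusted p under 0.05. edgeR called 0 and 0 genes there, and DESeq2 27 and 6. For defeat, limma called 0% with GFP virus, 0% with Setd7 virus and 0% averaged over virus, with 1642, 459 and 919 genes at an unadjusted p under 0.05. edgeR called 0 in each, and DESeq2 called 83, 7 and 8. For the difference of the virus effect with defeat limma called 0% (880 genes at an unadjusted p under 0.05), edgeR 0 genes and DESeq2 1. By none of the tools was any of the 7 related genes called, and Setdb2 was the 1 with an unadjusted p under 0.05, in the virus comparisons.

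Defeat averaged over virus moved none of the 7 past the test. The log2 differences ran from -0.67 ± 0.43 for Setdb2 (limma adjusted p = 0.939) and -0.13 ± 0.16 for Setd6 to 0.04 ± 0.04 for Setd3. For Setd2 it was -0.12 ± 0.08 (limma adjusted p = 0.939), for Setd4 -0.07 ± 0.19, for Setd5 -0.05 ± 0.06 and for Setdb1 0.01 ± 0.06. The virus effect differed with defeat by 0.32 ± 0.39 for Setd4 and 0.15 ± 0.12 for Setdb1 (limma adjusted p = 0.960 and 0.942). For Setd2, Setd3 and Setd5 it differed by 0.03 ± 0.15, 0.04 ± 0.09 and 0.03 ± 0.12. The errors were wider for Setd6 (-0.05 ± 0.32) and widest for Setdb2 (0.06 ± 0.86). Between the sexes, 0.062% of genes passed, 11 in number. None of the 8 was among them, and Setdb2 stood 0.85 ± 0.41 higher in females (limma adjusted p = 0.999).

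**Figure D3:**
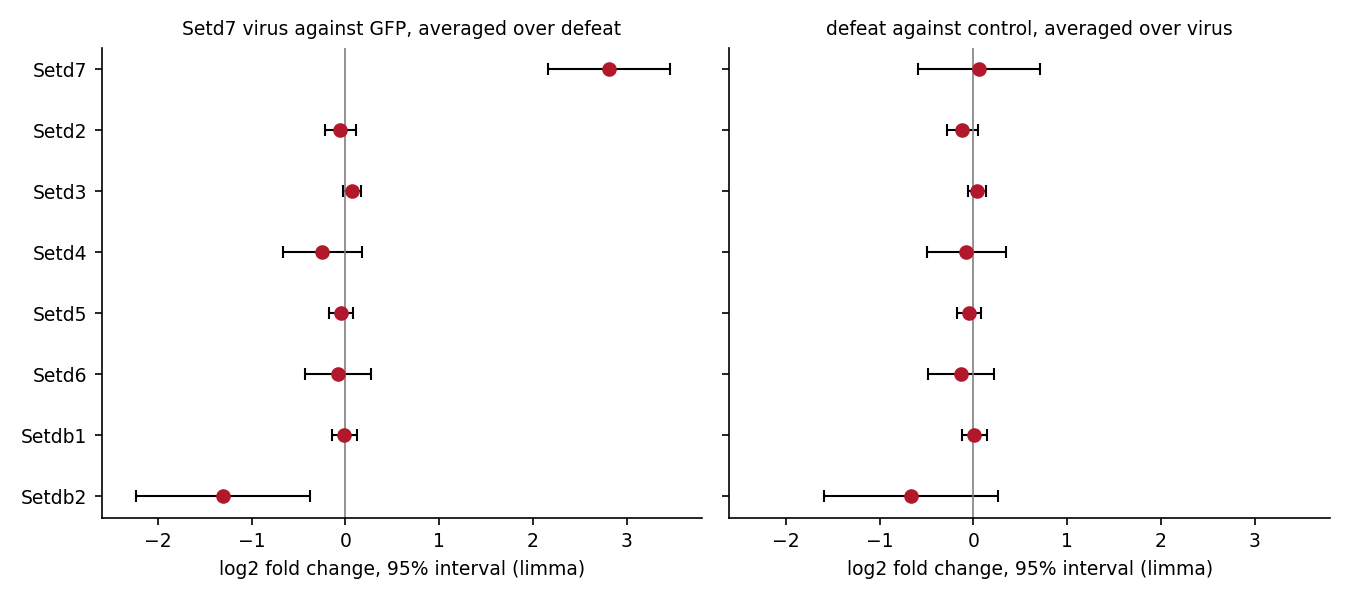
Log2 fold changes of the 8 genes with 95% intervals from limma, for Setd7 virus against GFP averaged over defeat (left) and for defeat against control averaged over virus (right). Setd7 at 2.81 on the left is the 1 value called; the interval of Setdb2 on the left lies below 0 but its adjusted p is 0.686.

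Because the Setd7 virus libraries differed in how much Setd7 they held, the related genes were also fitted against it. This fit had no term for sex or defeat. Mean Setd7 was 130401 normalized counts in the 3 female and 77674 in the 3 male Setd7 virus libraries, so the slopes may hold differences of sex. Per doubling of Setd7 over the 6 Setd7 virus libraries, Setd2 changed by 0.05 ± 0.07 on the log2 scale (SE), Setd3 by -0.01 ± 0.04, Setd5 by 0.00 ± 0.05, Setdb1 by -0.03 ± 0.05 and Setd6 by -0.04 ± 0.12. The slopes of Setd4 and Setdb2 were -0.23 ± 0.19 and 0.17 ± 0.44. Every one of the 7 had limma adjusted p of 0.931 or more. Of 17754 genes, 42 passed (0.237%), 1 with a positive slope and 41 with a negative one, a count that fell to 1 without Setd7 control replicate 4 and stood at 176 without replicate 3. Setd7 control replicate 4, the lowest in Setd7, also held the highest sums of interferon and antigen presentation genes (29630 normalized counts, against 2961 to 4046 with GFP) and of microglial genes (14850), and their part in the slopes was not tested.

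**Figure D4:**
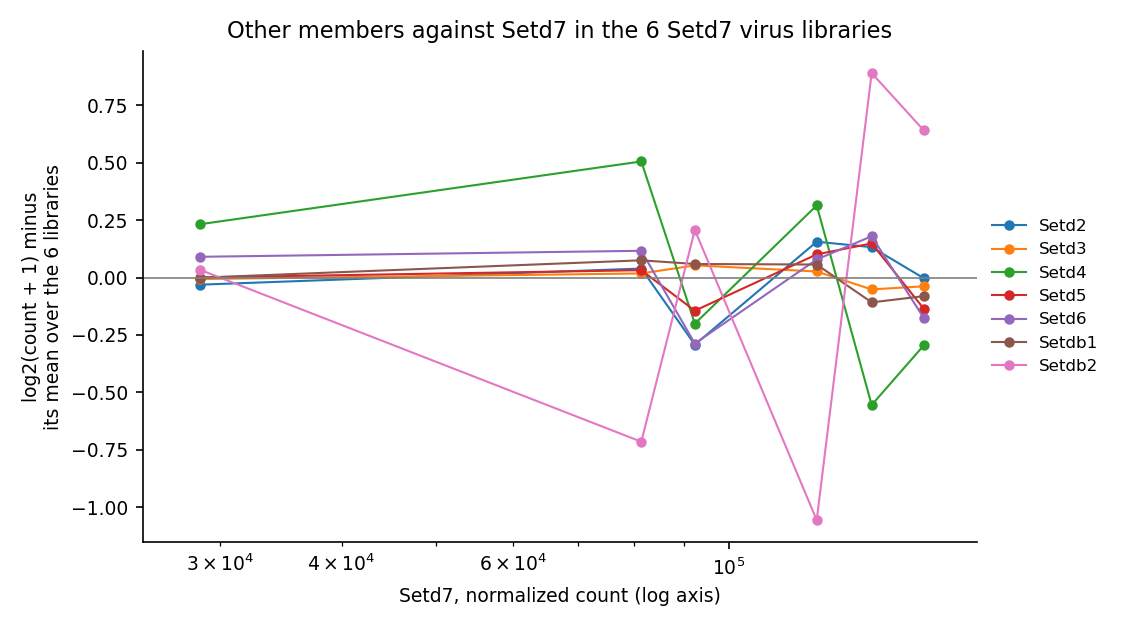
The 7 related genes, as log2 of the normalized count plus 1 less its mean over the 6 Setd7 virus libraries, against Setd7 in normalized counts (log axis) in the same libraries. No line keeps 1 direction from 28587 to 158681, and Setdb2 and Setd4 scatter most.

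The genes whose values were most like Setd7 over those 6 libraries were Vps36 (Pearson r = 0.996), an ESCRT-II subunit, Nr2f1 (0.989), an orphan nuclear receptor, Brd1 (0.988), a bromodomain reader, Fnta (0.974), a farnesyltransferase subunit, and Dlst (0.973), a subunit of the 2-oxoglutarate dehydrogenase complex. Over the 7 GFP libraries the same genes had r of 0.563, -0.494, 0.0235, -0.182 and 0.601. None of the 5 passed the slope test, with limma adjusted p from 0.388 for Vps36 to 0.926 for Brd1. Among 13895 genes, 16 had r over 0.95 and 48 under -0.95. The 5 most opposite, named after the values were seen, were Lor (-0.991), Lck (-0.989), Nfya (-0.988), Irf9 (-0.985) and Hk3 (-0.985). Lor, Lck and Nfya did not pass the slope test (limma adjusted p = 0.905, 0.101 and 0.792). Irf9, a subunit of the interferon-activated factor ISGF3, passed (limma adjusted p = 0.00884). Hk3, a hexokinase of myeloid cells, also passed (limma adjusted p = 0.0275). Both were picked over the same 6 libraries that gave the slopes, so their passing is no separate evidence. Without Setd7 control replicate 4, 1 gene passed the slope test in place of 42, and with Setd7 on a linear scale 0 did. None of the 7 related genes was near either end: the highest r was that of Setd2 at 0.259 and the lowest that of Setd4 at -0.498.

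The wider pathway was read from 7 lists of genes. Of the 31 other SET-domain methyltransferases 30 were tested, 11 stood higher and 19 lower with Setd7 virus averaged over defeat, and none was called. Their median log2 difference was -0.02, against 0.00 over all genes. Kmt2d and Kmt2b, which methylate lysine 4 of histone H3 at enhancers and promoters, differed by -0.13 ± 0.05 and -0.14 ± 0.06 (both limma adjusted p = 0.697). Kmt2d held 14208 to 17030 normalized counts with GFP and 12158 to 15986 with Setd7 virus, ranges that overlapped.

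Among 13 partners and demethylases of lysine 4 methylation, 9 stood higher and 4 lower, none called, with a median of 0.04. Dpy30, a core subunit of the lysine 4 methyltransferase complexes, differed by 0.23 ± 0.11 (limma adjusted p = 0.699), and the demethylase Kdm5b by -0.11 ± 0.05 (limma adjusted p = 0.702). Kdm5c, an X-linked demethylase of lysine 4, was the 1 listed gene called between the sexes, 0.40 ± 0.04 higher in females on the log2 scale (limma adjusted p = 0.000614). Its mean was 5361 normalized counts in females and 4082 in males.

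Of 16 genes whose proteins SETD7 is known to methylate, 8 stood higher and 8 lower, none called, with a median of 0.00. Esr1, the estrogen receptor alpha, differed by 0.26 ± 0.14 (limma adjusted p = 0.718), and Taf10, a subunit of TFIID, by 0.16 ± 0.12 (limma adjusted p = 0.780). Trp53 differed by -0.06 ± 0.11 and Dnmt1 by -0.03 ± 0.05. These are RNA levels and say nothing of methylated protein.

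In the lists that go with the related genes none was called either. Of 15 genes of lysine 36 methylation 7 stood higher and 8 lower, with a median of -0.02. Morf4l2, a relative of the lysine 36 reader MRG15, differed by 0.14 ± 0.06 (limma adjusted p = 0.697), and the demethylase Kdm4a by -0.09 ± 0.05 (limma adjusted p = 0.705). Of 14 tested genes of SETDB1 and lysine 9 silencing 3 stood higher and 11 lower, with a median of -0.03. Mphosph8 and Tasor, both of the HUSH silencing complex, differed by -0.12 ± 0.06 and -0.09 ± 0.05 (limma adjusted p = 0.720 and 0.745).

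Of 10 corepressor partners of SETD5, 4 stood higher and 6 lower, with a median of -0.05. Cdc73, of the PAF1 complex, differed by -0.12 ± 0.06 (limma adjusted p = 0.706), and Tbl1xr1, of the NCoR complex, by -0.10 ± 0.05 (limma adjusted p = 0.714). Of 7 actin genes and actin partners 6 stood higher and 1 lower, with a median of 0.10. Pfn2, a neuronal profilin, differed by 0.09 ± 0.05 (limma adjusted p = 0.714), and Actc1, cardiac actin, by -0.59 ± 0.31 (limma adjusted p = 0.722). Actc1 was scarce, at 8.62 to 36.3 normalized counts with GFP and 7.42 to 13.1 with Setd7 virus, ranges that overlapped.

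The libraries held 26548713 to 50842070 reads on genes. All 10 markers of dopamine neurons were detected in every library, with summed levels of 26260 to 112833 normalized counts over the 7 GFP libraries and 64470 to 125512 over the 6 Setd7 virus libraries. In 3 libraries with GFP virus (replicates 2 and 3 of the control group and replicate 1 of the defeat group) Th, the rate-limiting enzyme of dopamine synthesis, was lowest, at 2508 to 3392. Summed thalamic markers ran from 13464 to 42590 with GFP against 13112 to 14863 with Setd7 virus. Interferon and antigen presentation genes summed to 5752 to 6549 in Setd7 defeat. The part of these markers in the differences was not tested. Leaving out the 3 libraries low in Th cannot show it, because none of the 7 related genes was called with all libraries. It also left GFP control replicate 1 alone in its group.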

How the data were processed

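RNA from VTA punches was purified with RNeasy Micro kits and made into TruSeq RiboZero libraries, per the labels' protocols. Per the submitters' processing notes, the tools were Bowtie2, featureCounts and DESeq2 with GRCm39, and no version is given. The file deposited by the authors is 1 table of signal, DESeq2-normalized counts of 26264 genes in 13 libraries. Every value was a multiple of a step in its column, and after division by it 100% of the 341432 values were whole to within 0.01 read. The reads so recovered came to 26548713 to 50842070 per library.

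Genes with at least 10 normalized counts in 2 or more libraries were tested (17755 kept, 8509 dropped). The test was limma 3.58.1 in R 4.3.3 with a trend on log2(normalized count + 1), 4 group means and sex, two-sided, with Benjamini-Hochberg adjustment over all tested genes and a threshold of 0.05. Fold changes on this scale understate those of low genes such as Setdb2. The slope on the level of Setd7 was fitted in the Setd7 virus libraries only, without terms for group or sex. edgeR 4.0.16 and DESeq2 1.42.0 ran on the recovered reads. The code was tested on simulated data. Exon lengths came from the GRCm38 annotation by gene name, and the promoter and gene spans from RefSeq.

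The 8 genes, the lists and the alternatives were chosen with earlier results of these data known, and the libraries low in Th were set aside after the data were seen. Named were the 8 genes, listed genes past the threshold or, with none, the 2 of smallest p, the genes on either side of Setd7, and the 5 most correlated with it (mean of 30 or more). Trp53 and Dnmt1 were added as textbook targets. Replicate numbers only name libraries, in order of deposit. The table's column for Setd7 defeat replicate 1 carries a longer number than its title, and whether it holds 1 animal is not settled.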

Additional observations from a re-analysis of the deposited data

How the results depend on the processing

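The 7 related genes gave 1336 values under alternative settings, of which 0 were called, 68 changed sign and 56 moved by more than 1 SE, with a lowest adjusted p of 0.275. By DESeq2 the counts of called genes were 27 for the virus without defeat, 6 after defeat and 7 averaged, 83, 7 and 8 for defeat with GFP, with Setd7 virus and averaged, 1 for the interaction and 17 for sex, and Setd7 itself passed without defeat (2.73) and after it (3.11). With no filter, 1 gene was called for the virus after defeat and 1 for defeat with Setd7 virus. The averaged virus effect called 0 genes with robust fitting (Setd7 2.81). Without the 3 libraries low in Th, Setd7 was 2.89 and not called, in a fit that left 1 library in GFP control. With Setd7 on a linear scale, 0 genes passed for the slope.

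Leaving out each library in turn, the counts ran from 0 to 4 for the virus without defeat, 0 to 23 after defeat, 1 to 3 averaged, 0 to 18 for defeat with Setd7 virus, 0 to 4 for defeat averaged, 0 to 3 for the interaction and 1 to 176 for the slope. The high ends after defeat and for defeat with Setd7 virus came without Setd7 defeat replicate 2, which leaves 1 library assumed to vary like the other groups. The slope count was 10, 9 and 8 without Setd7 control replicate 1, replicate 2 and Setd7 defeat replicate 2. Setd7 ran from 2.31 to 3.09 without defeat, 2.56 to 3.59 after it, 2.54 to 3.08 averaged, and 2.64 to 3.13 in the exact permutation test (p = 0.00126 to 0.00216). Each of these p-values is the smallest that the libraries left can give, so their range shows only the number of permutations. The cause of the shifts in the counts and in the level of Setd7 was not tested. No paired analysis was possible because the labels give every library a number of its own that no 2 groups share. Depth limits Setdb2 above all, at 2 to 30 reads a library.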

Other observations

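After the values were seen, the virus effect was compared between the sexes. Setd4 stood at 44.5 to 57.2 normalized counts in the 3 female Setd7 virus libraries and at 77.5 to 93.9 in the 3 male ones, without overlap. Setdb2 also did not overlap, at 7.02 to 11.9 in females and 2.35 to 6.12 in males. Of all tested genes 8.94% did not overlap between these same libraries, so such a separation was common. In GFP libraries Setd4 overlapped between females (66.5 to 94.9, n = 3) and males (62.3 to 94.8, n = 4). The virus effect on Setd4 was lower in females than in males by a log2 difference of -0.83 ± 0.31 (limma unadjusted p = 0.0211, adjusted p = 0.999). For Setd6 it was -0.67 ± 0.26 (limma unadjusted p = 0.0269, adjusted p = 0.999). Setd6 overlapped between the sexes with Setd7 virus, at 125.4 to 173.6 in females and 161.8 to 166.1 in males. With GFP it stood at 167.4 to 226.9 in females and 115.3 to 162.1 in males. How common such a gap is over all genes with GFP was not counted, so it is not read as a trait of Setd6. Setd7 itself with the virus had a mean of 130401 normalized counts in females (92287.5 to 158681) and 77674 in males (28587 to 123133). These ranges overlapped, and the lowest male value was that of Setd7 control replicate 4. The difference in virus effect was 0.94 ± 0.54 (limma unadjusted p = 0.109, adjusted p = 0.999). Over all tested genes limma called 0 for this difference, and 531 had an unadjusted p under 0.05.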
